A study of Mus musculus with 4 samples.

Results

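Genes of the Nodal and activin pathway were followed in BAF250 knock-out and wild type embryonic stem (ES) cells of the mouse. The 10 genes were Nodal, Gdf3, Inhba, Inhbb, Tdgf1, Acvr2b, Lefty1, Lefty2, Fst and Smad7, taken as all probe sets that the platform annotation gives to these symbols: 18 of the 45101 probe sets, for 10 of 18193 genes. They were selected on the homozygous signals of Fst and Tdgf1, which differ from the other arrays in opposite directions. Differences of the homozygous lines are therefore given for these genes as a description, with no p-value. Total RNA from 4 cultures was hybridised to 1 Affymetrix array each. The groups were 2 homozygous BAF250 knock-out lines, named ko1 and ko2, 1 heterozygous knock-out line and 1 wild type line, all kept free of feeder cells on gelatin, with serum and LIF, the cytokine that sustains mouse ES cells. BAF250 is an ARID-domain subunit of SWI/SNF chromatin remodellers, found in the BAF version of the complex; the labels give neither the letter of the gene, the allele, the strain nor whether a line is 1 clone. Nothing in the labels says that arrays are separate cultures of 1 line, so the spread between ko1 and ko2 is the only replicate error.

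Nodal and the activins are secreted ligands of the TGF-beta family. They bring together type II receptors such as ACVR2B and type I receptors such as ALK4, whose kinase phosphorylates SMAD2 and SMAD3; these join SMAD4 and enter the nucleus, where FOXH1 is a main partner on DNA. Nodal and GDF3 need a coreceptor of the EGF-CFC family, of which Cripto, the product of Tdgf1, is the one known in ES cells, while activins, dimers of the Inhba and Inhbb products, signal without it. Lefty proteins block Nodal and its coreceptor, follistatin binds and neutralises activins, and SMAD7 inhibits the receptors inside the cell. Lefty1, Lefty2 and Smad7 are themselves targets of the pathway. Nodal and Cripto are hallmarks of the epiblast and of ES cells.

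Only 5 of the 10 genes had a sequence in the RefSeq promoter table (Acvr2b, Inhba, Inhbb, Nodal and Tdgf1). Tdgf1, the coreceptor gene, was lower in both homozygous lines. Nodal, the ligand gene, was not set apart from the typical gene on its brighter probe set. On its other probe set it was lower than wild type in both lines. The upstream sequences of Tdgf1 and Nodal are shown first. Each is the 250 bases before the annotated start, read 5′ to 3′ on the gene's strand in GRCm38.p6: chr9:110946159-110946408 on the minus strand for Tdgf1 and chr10:61417722-61417971 on the plus strand for Nodal. Capitals mark matches on either strand to AATNCACA (the FOXH1 motif), CAGAC (the SMAD box), GGGCGTGG (a box bound by SP and KLF factors) and ATGCAAAT (the octamer of POU factors); these motifs were found without overlap.
Tdgf1: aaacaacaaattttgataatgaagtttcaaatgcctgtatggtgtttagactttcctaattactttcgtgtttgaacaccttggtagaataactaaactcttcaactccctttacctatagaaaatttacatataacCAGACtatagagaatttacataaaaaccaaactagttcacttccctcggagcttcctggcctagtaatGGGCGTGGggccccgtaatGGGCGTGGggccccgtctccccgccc
Nodal: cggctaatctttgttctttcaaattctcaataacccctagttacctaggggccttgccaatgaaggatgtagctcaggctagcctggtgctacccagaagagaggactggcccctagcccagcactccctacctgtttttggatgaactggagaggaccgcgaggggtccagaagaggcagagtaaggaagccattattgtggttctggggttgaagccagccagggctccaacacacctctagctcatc
In the Tdgf1 window GGGCGTGG began 45 and 26 bases before the start, inside a repeated stretch, and CAGAC began 113 bases before it. The Nodal window held none of the 4 motifs. Over all 32851 windows of this length, 4.79% held GGGCGTGG, 42.2% CAGAC, 3.18% AATNCACA and 1.6% ATGCAAAT. These matches describe letters and are not shown to be binding sites.

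The arrays differed in overall level and in RNA quality. Median signals were 2.70 in ko1 and 2.61 in ko2, against 2.74 in heterozygous and 4.01 in wild type. Over the 13729 genes tested, the median log2 difference from wild type was -0.75 for the homozygous lines and -0.68 for the heterozygous line, and the homozygous lines differed from heterozygous by -0.03. Log2 differences, on the scale of log2(signal + 0.675), are therefore given relative to this median gene unless called deposited. In the main fit the tests were run on deposited differences, so its calls and p-values refer to 0 on that scale. For Tdgf1 from wild type, for example, the tested difference was -2.73 and the relative one -1.98. The background of an array, taken as the highest signal among 27 bacterial control probe sets with no spiked transcript, was 5.55 in ko1 and 3.82 in ko2, against 6.92 in heterozygous and 7.57 in wild type. The 3′ actin control was 5.01 times as bright as the 5′ one in ko1 and 2.61 times in ko2, against 2.86 times in heterozygous and 1.3 times in wild type. The same ratio of the Gapdh controls was 2.57 in ko1 and 1.21 in ko2, against 1.27 in heterozygous and 1.10 in wild type, so that on it ko1 alone stood apart. Arid1a, the gene of BAF250a, read 7.03 in ko1 and 3.57 in ko2 on its brighter probe set, against 50.4 in heterozygous and 109 in wild type, and 17.3 and 1.06, against 24.1 and 42.9, on the other. ES cell markers (Pou5f1, Sox2, Nanog, Esrrb, Utf1 and Zfp42) were above background on all 4 arrays, so transcripts of the labelled cell type were detectable in each. In ko1 Sox2, Nanog and Zfp42 were only a little above it, at 6.83, 7.56 and 7.87. In RNA of whole cultures, fewer cells of a type and less RNA per cell cannot be told apart.

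All 10 genes passed the filter on low signal with their brightest probe set, on which each gene is tested; 3 of the 18 probe sets did not. By that probe set 6 genes (Nodal, Gdf3, Tdgf1, Acvr2b, Lefty1 and Smad7) were above background on every array, 3 (Inhba, Lefty2 and Fst) on some arrays and 1 (Inhbb) on none. The wild type array gave the highest deposited signal for 8 of the 10, all but Fst and Lefty2, against 55.1% of all tested genes.

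**Figure D1:**
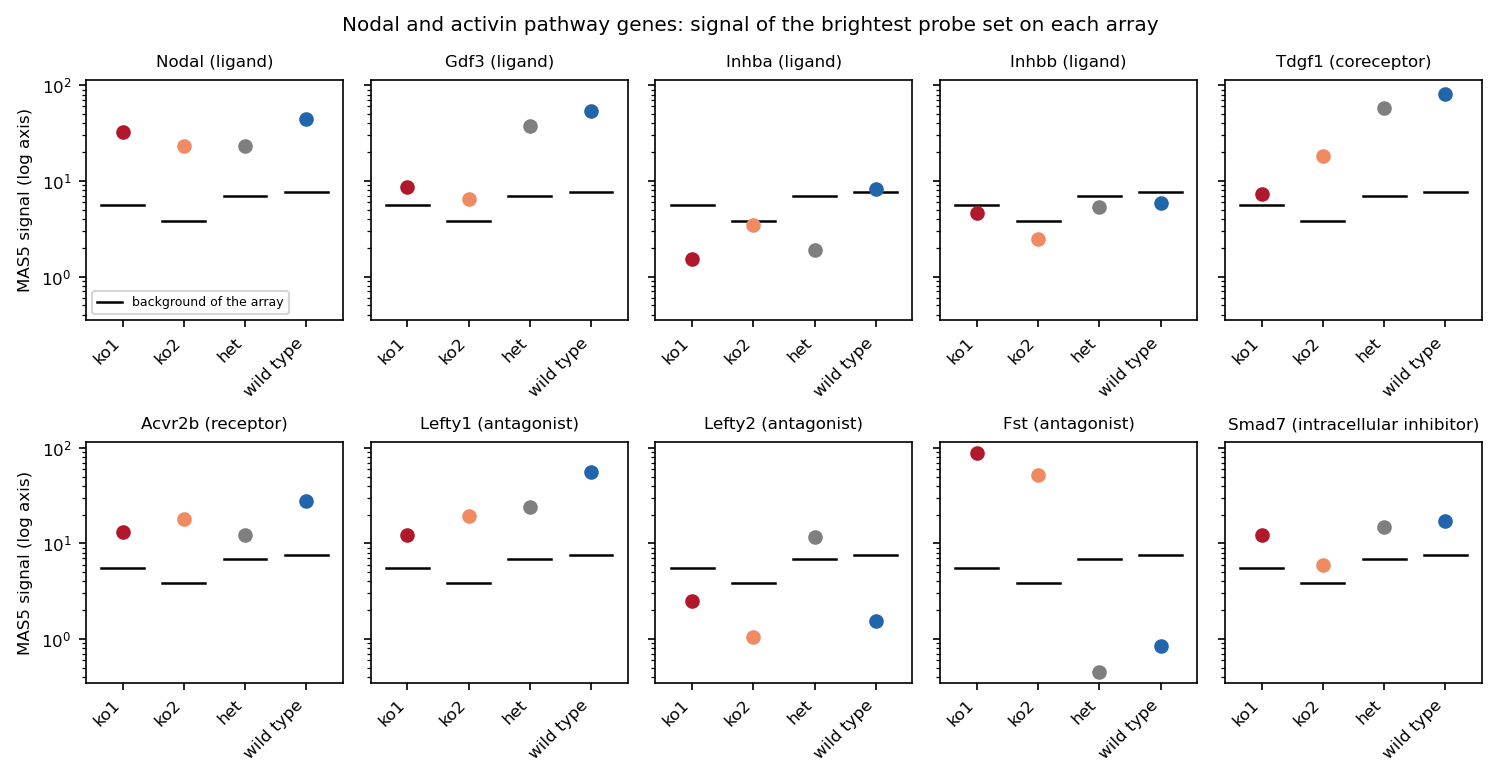
MAS5 signal (log axis) of the brightest probe set of each of the 10 genes on the 4 arrays, 1 point per array, with a black bar at the background of that array. Fst lies above background in ko1 and ko2 alone, whereas Tdgf1 and Gdf3 are lowest in ko1 and ko2, and both activin subunit genes stay near or below background.

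Among the ligands, both homozygous lines were below both other arrays for Gdf3. For Nodal they were below wild type as deposited but not set apart from heterozygous. Gdf3, a Nodal-like ligand expressed in pluripotent cells, read 8.62 in ko1 and 6.47 in ko2, against 37.1 in heterozygous and 53.9 in wild type. The homozygous arrays did not overlap the other arrays and agreed closely with each other. The log2 difference was -2.00 ± 0.61 (SE) for homozygous minus wild type, 3.99-fold lower, and -2.18 ± 0.61 for homozygous minus heterozygous. The dimmer Gdf3 probe set read 0.865 in ko1, below background, and 5.63 in ko2, against 11.3 in heterozygous and 10.7 in wild type. On this probe set too, both homozygous lines were below both other arrays, but relative to the median gene ko2 stood only -0.11 from wild type.

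Nodal, the ligand itself, read 32.2 in ko1 and 23.3 in ko2 on its brighter probe set, against 23.4 in heterozygous and 44.1 in wild type. The heterozygous value fell next to that of ko2, and ko1 lay above both, so the genotypes were not separated. The log2 difference from wild type was -0.67 as deposited and 0.07 ± 0.56 relative to the median gene, so its sign rests on the scaling. From heterozygous it was 0.26 ± 0.56. The second Nodal probe set read 6.08 and 8.30 in ko1 and ko2, against 7.31 in heterozygous and 20.9 in wild type, with differences of -0.72 from wild type and -0.00 from heterozygous. On both probe sets the wild type array was the highest and the heterozygous array stood within the range of the homozygous lines.

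The activin subunit genes were at the limit of detection. Inhba, the gene of the activin A subunit, read 1.53 in ko1 and 3.43 in ko2, against 1.89 in heterozygous and 8.22 in wild type; wild type alone was above background, by a small margin. Its other probe set lay between 0.311 and 1.12 on all arrays, below background. Inhbb, the gene of the activin B subunit, read 4.67 in ko1 and 2.50 in ko2, against 5.29 in heterozygous and 5.85 in wild type, with a second probe set between 1.77 and 4.62. None of the Inhbb values was above the background of its array, and no fold is given for it.

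The coreceptor gene Tdgf1 has 1 probe set. It read 7.29 in ko1 and 18.0 in ko2, against 57.2 in heterozygous and 80.1 in wild type. All 4 values were above background, and both homozygous lines lay below the others, ko1 the lower. The log2 difference was -1.98 ± 0.58 from wild type, 3.95-fold lower, and -2.21 ± 0.58 from heterozygous, 4.64-fold lower. The line decided the size: relative to wild type it was -2.76 with ko1 alone and -1.36 with ko2 alone. The actin and Gapdh ratios given above were likewise furthest from wild type in ko1; their part in this was not tested. The gene table also lists pseudogenes of Tdgf1, and whether the probes separate them from Tdgf1 was not examined.

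Acvr2b, the type II receptor gene, read 13.3 in ko1 and 18.0 in ko2 on its brightest probe set, against 12.2 in heterozygous and 28.1 in wild type. The homozygous lines lay between heterozygous and wild type, at -0.09 ± 0.63 from wild type and 0.36 ± 0.63 from heterozygous. The other Acvr2b probe sets stayed below background on all arrays, between 0.398 and 6.01.

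The extracellular antagonists did not move together. Fst, the gene of follistatin, read 88.2 in ko1 and 51.5 in ko2 on its brightest probe set, against 0.453 in heterozygous and 0.850 in wild type. It was above background in the homozygous lines alone, and the groups were far apart. Wild type was set at its background, and Fst in the homozygous lines then exceeded it at least 8.90-fold as deposited and at least 14.9-fold relative to the median gene; against heterozygous these bounds were 9.74-fold and 9.95-fold. The second Fst probe set read 12.7 in ko1 and 18.0 in ko2, against 3.61 in heterozygous and 6.08 in wild type. It gave the same order of groups with smaller steps, a bound over wild type of at least 2.00-fold as deposited and 3.35-fold relative to the median gene, and here ko2 was the higher line.

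Lefty1, a feedback antagonist that marks ES cells, had the opposite arrangement to Fst, with 12.2 in ko1 and 19.4 in ko2, against 24.0 in heterozygous and 56.2 in wild type. Both homozygous lines were below the other arrays, but ko2 lay close to heterozygous. The log2 difference was -1.08 ± 0.58 from wild type and -0.59 ± 0.58 from heterozygous. Leaving out ko2 moved these Lefty1 differences to -1.57 and -1.06, and leaving out ko1 to -0.75 and -0.23. Lefty2, its neighbour and close paralogue on chromosome 1, read 2.51 in ko1 and 1.04 in ko2, against 11.8 in heterozygous and 1.54 in wild type. Heterozygous was the sole Lefty2 value above background, and relative to it the homozygous signals were lower by at least 2.51-fold, while with wild type no fold can be given. The Lefty genes are similar enough in sequence that signal shared between their probe sets is uncertain.

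Smad7, the inhibitory SMAD gene, read 12.3 in ko1 and 5.91 in ko2, against 14.7 in heterozygous and 17.1 in wild type. It was lower in both homozygous lines as deposited, but relative to the median gene the lines fell on either side of wild type, at 0.13 for ko1 and -0.68 for ko2. A second Smad7 probe set, of a kind whose probes can match other transcripts, was above background in ko1 alone (5.80); ko2 read 1.05, against 1.33 in heterozygous and 5.07 in wild type.

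**Figure D2:**
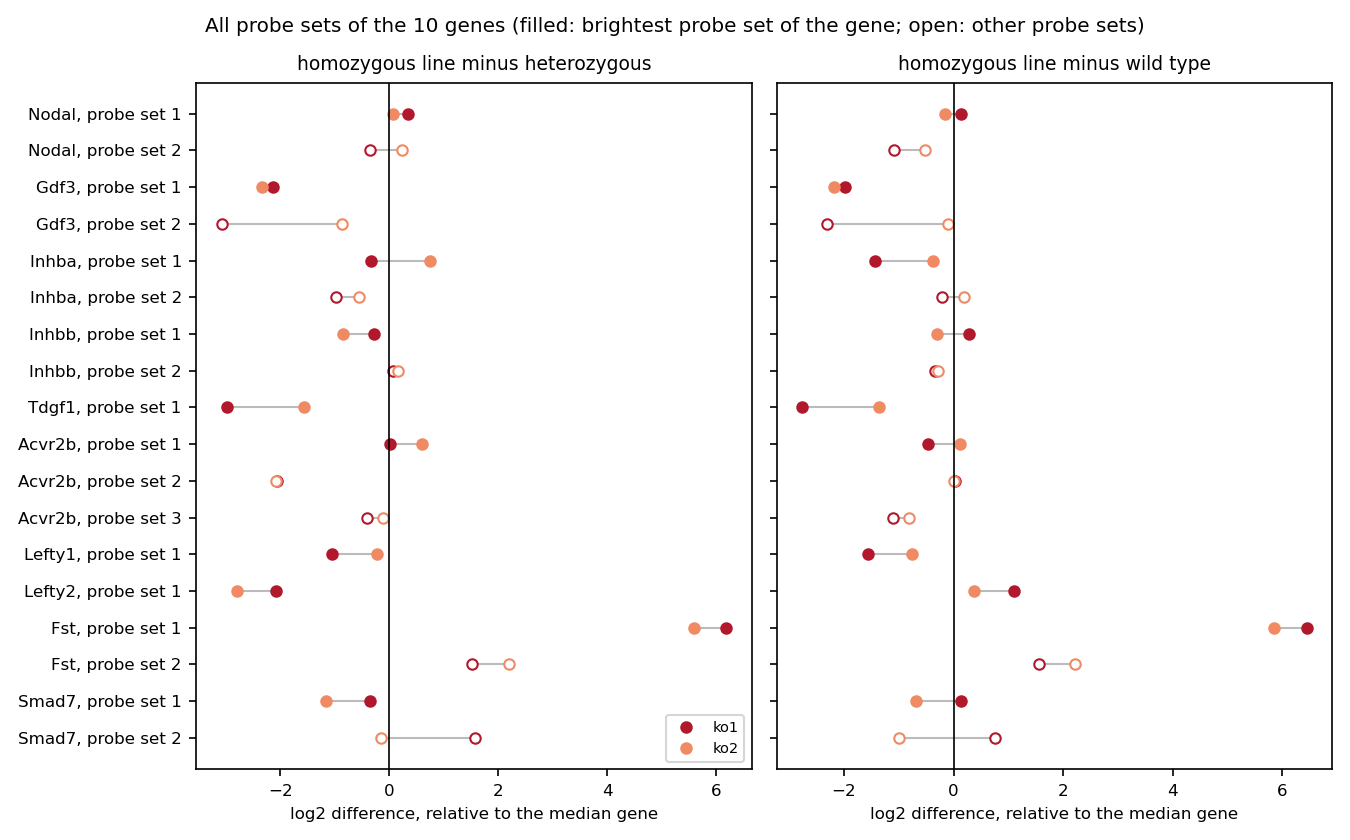
Log2 difference of each homozygous line from heterozygous (left) and from wild type (right), relative to the median gene of that pair of arrays, for all 18 probe sets; red and orange points are ko1 and ko2, filled for the brightest probe set of a gene and open for the others. Both Fst probe sets lie right of 0 in both lines against both arrays, Gdf3, Tdgf1 and Lefty1 lie left of 0, Lefty2 lies left of 0 against heterozygous and right of it against wild type (where both sides are below background), and the Nodal, activin subunit, Acvr2b and Smad7 points scatter around 0 or differ between probe sets.

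Ligand and antagonist genes each held members in more than 1 pattern. In the fit across all genes, Fst was called higher and Gdf3 and Tdgf1 lower for homozygous against wild type, which is 1 and 2 of 10 genes; over all tested genes 0.401% were called higher, 0.612% lower and 1.01% either way. Against heterozygous the calls were Fst higher and Tdgf1 lower, beside 0.699% higher, 0.0583% lower and 0.758% either way over all genes. Fst passed the signal filter through the homozygous arrays alone, where it is high. Since the choice of genes used these contrasts, nothing is read from these counts. After median centring or quantile normalization Fst kept its call and Gdf3 and Tdgf1 did not. No gene of the 10 was called with probe sets averaged or without the intensity trend in the variance. Without that trend 0 of all tested genes were called in either contrast. With probe sets averaged 7 were called against wild type and 10 against heterozygous, all higher. In deposited signals both homozygous arrays were above both others for 1 of the 10 genes, against 11% of all tested genes, and below both for 5 of the 10, against 26.9%. Relative to each array's median these counts were 1 of 10, against 18.1%, and 3 of 10 (Gdf3, Tdgf1 and Lefty1), against 21.5%. The median of the 10 differences was -0.14 from wild type and -0.55 from heterozygous, where all tested genes have 0 by construction.

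The heterozygous line against wild type was the comparison not used in choosing the genes. The log2 difference (heterozygous minus wild type) was 0.20 ± 0.67 for Tdgf1 and 0.15 ± 0.71 for Gdf3. Fst was below background on both arrays, so no difference is given for it. Nodal was at -0.22 ± 0.64, Lefty1 at -0.53 ± 0.67, Acvr2b at -0.48 ± 0.72 and Smad7 at 0.47 ± 0.83. Lefty2 was above background in the heterozygous line (11.8) and below it in wild type (1.54), and did not pass the test (limma adjusted p = 0.672). It passed the signal filter through the heterozygous array alone. By limma 0 of the 10 genes passed an adjusted p of 0.05, against 0.0146% of all tested genes, and 0 of 10 were below 0.05 before adjustment, against 7.57%. This comparison rests on 1 array a side, with the spread taken from the homozygous lines, and the intervals are wide, so these values do not show that the lines were alike.

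Of 40 further genes of the pathway, listed from general knowledge, 36 had a probe set with 1 symbol and 31 passed the signal filter. For homozygous minus wild type 0 of the 31 passed limma's test, either way, against 1.01% of all tested genes, and 7 had an unadjusted p below 0.05, as had 11.9% of all tested genes. Their median difference was 0.06, with 17 genes above the median gene and 14 below. The same count of calls was 0 against heterozygous (3 with an unadjusted p below 0.05, beside 6.87% of all tested genes) and 0 for heterozygous minus wild type (2 with an unadjusted p below 0.05, beside 7.57%).

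Foxa2, Furin and Acvr1b had high fitted differences, but all 3 were below background in wild type. Bounds are therefore given at most, and the 3 are not ranked. Foxa2, an endoderm regulator and a target of Nodal in the embryo, read 38.4 in ko1 and 9.50 in ko2, against 2.10 in heterozygous and 3.16 in wild type, at least 4.23-fold above wild type at background relative to the median gene (limma adjusted p = 0.261). Furin, a convertase that cleaves the Nodal precursor, read 17.7 in ko1 and 8.23 in ko2, against 6.70 in heterozygous and 1.82 in wild type (at least 2.67-fold, limma adjusted p = 0.273). Both homozygous lines were the highest arrays for Foxa2 and Furin, as they were for 11% of all tested genes as deposited. Relative to array medians that share was 18.1%. For Furin ko2 read close to heterozygous, but heterozygous was below background for both genes, so that closeness is not measured. Acvr1b, the ALK4 receptor gene, read 8.42 in ko1 and 3.11 in ko2, against 9.85 in heterozygous and 1.70 in wild type (limma adjusted p = 0.592). Heterozygous was thus the highest array for Acvr1b, and ko2 was below background, so no bound is given for it. Tgfbr3, a coreceptor that presents inhibin, was above background in ko2 alone (8.19).

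On the low side stood Foxh1, with 2.05 in ko1 and 2.89 in ko2, against 16.6 in heterozygous and 19.2 in wild type. Both homozygous values of Foxh1 were below background and both others above it, at least 2.49-fold lower than wild type and 3.52-fold lower than heterozygous (limma adjusted p = 0.162 and 0.36). A second Foxh1 probe set had signals of 2.39 and 5.25 in ko1 and ko2, against 11.6 in heterozygous and 19.2 in wild type, while the remaining probe set, above background on all arrays, stood at 0.25. Inha, the inhibin alpha gene, and Bambi, a decoy receptor gene, were above background in wild type alone, at 10.2 and 11.1, and Mixl1, a target gene of the primitive streak, was never above background. Among the transducers, Smad2 differed by 0.66 ± 0.86, Smad4 by 0.24 ± 0.75 and Smad3 by -0.44 ± 0.78 from wild type. The Smad4 probe sets disagreed. Another read 12.6 in ko1 and 14.0 in ko2, against 5.70 in heterozygous, below background, and 8.29 in wild type. On it both homozygous lines were above both other arrays (1.38). So they were for 11% of all tested genes as deposited and 18.1% relative to array medians. The remaining Smad4 probe set stood at 1.57 with wild type below background. Ski, Skil and Tgif1, nuclear corepressors of SMAD proteins that were singled out after their values were seen, stood at -1.22 ± 0.77, -0.96 ± 0.65 and -0.75 ± 0.58 on their brightest probe sets, and none passed the test (limma adjusted p = 0.277, 0.269 and 0.277). On these probe sets both homozygous lines were below both other arrays. The same held for 26.9% of all tested genes as deposited and 21.5% relative to array medians. Ski in ko1 (4.91) was below background. The second probe sets of Ski and Skil stood at -0.11 and 0.55, with heterozygous the lowest array, and below background, on each. On that of Skil only ko2 was above background, so its difference is not measured. Tgif2, the paralogue of Tgif1, stood at -0.25.

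**Figure D3:**
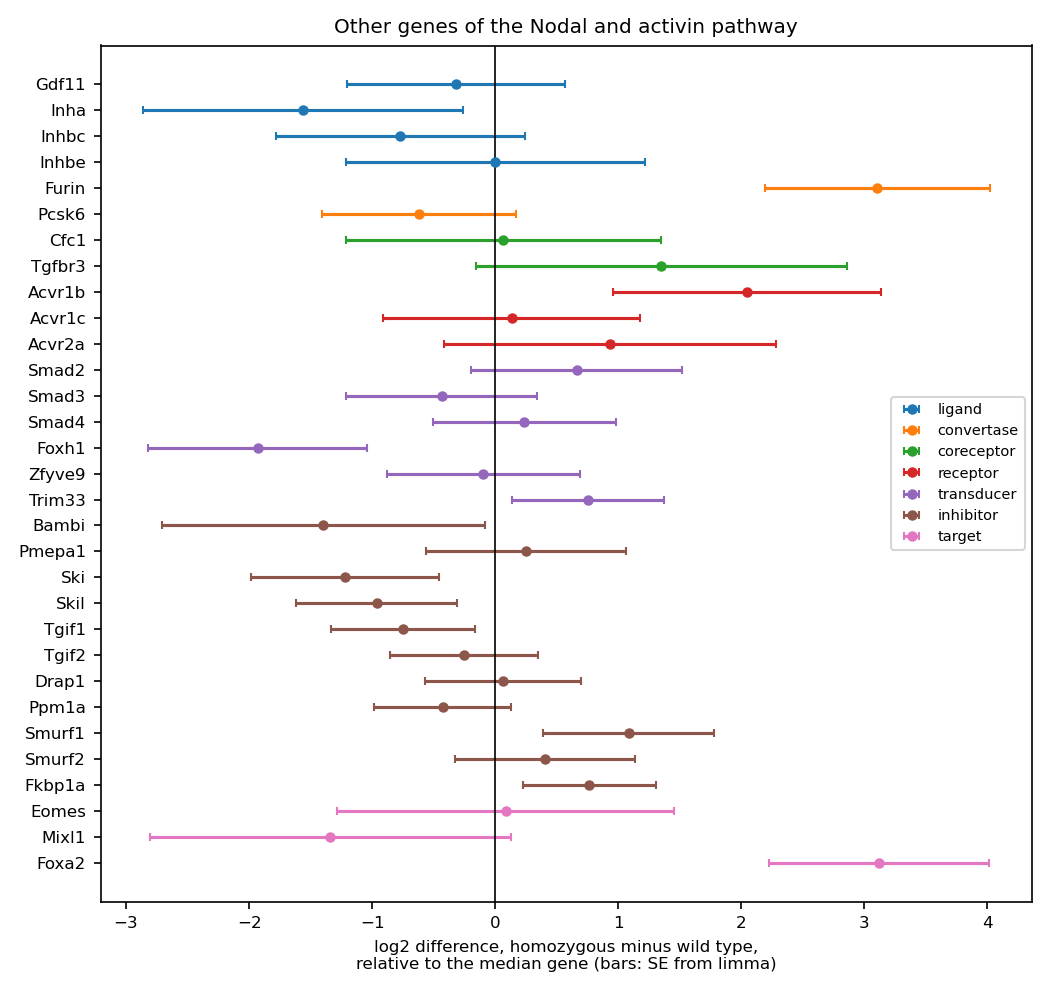
Log2 difference for homozygous minus wild type relative to the median gene, with SE bars from limma, for the 31 further pathway genes that passed the signal filter, coloured by role. Foxa2, Furin and Acvr1b, at the right, are below background in wild type, and Foxh1, at the left, is below background in both homozygous lines. None of the 31 passed the test, which was run on the deposited difference and not on the one drawn.

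The profiles nearest to Fst and to Tdgf1 over the 4 arrays were sought among all tested genes outside the 10, by the distance between log2 profiles relative to the array medians and centred on each gene's mean. Nearest to Fst were Cited1, a transcriptional coactivator gene (distance 0.297), Sparc, a matrix protein gene (0.394), Col4a1, a type IV collagen gene (0.667), Pth1r, a parathyroid hormone receptor gene (0.776) and Srgn, a proteoglycan gene (1.02), where the median gene lay at 6.16. Nearest to Tdgf1 were Eef1akmt2 (0.108), 4930488B22Rik (0.139), Ccdc3 (0.178), Fn1, the fibronectin gene (0.233), and Tac4, a tachykinin gene (0.258), against 2.65 for the median gene. Sparc, Col4a1 and Fn1 were above background on all 4 arrays. Cited1, Pth1r and Srgn were below it in heterozygous and wild type, and Eef1akmt2, 4930488B22Rik, Ccdc3 and Tac4 in ko1 and ko2, with 4930488B22Rik below it in heterozygous too, so their order there is not measured. Fst itself was below background in heterozygous and wild type (0.453 and 0.850). Its distances to all 5 genes, Sparc and Col4a1 included, therefore rest in part on values that are not measured. With 4 arrays this likeness is a description.

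**Figure D4:**
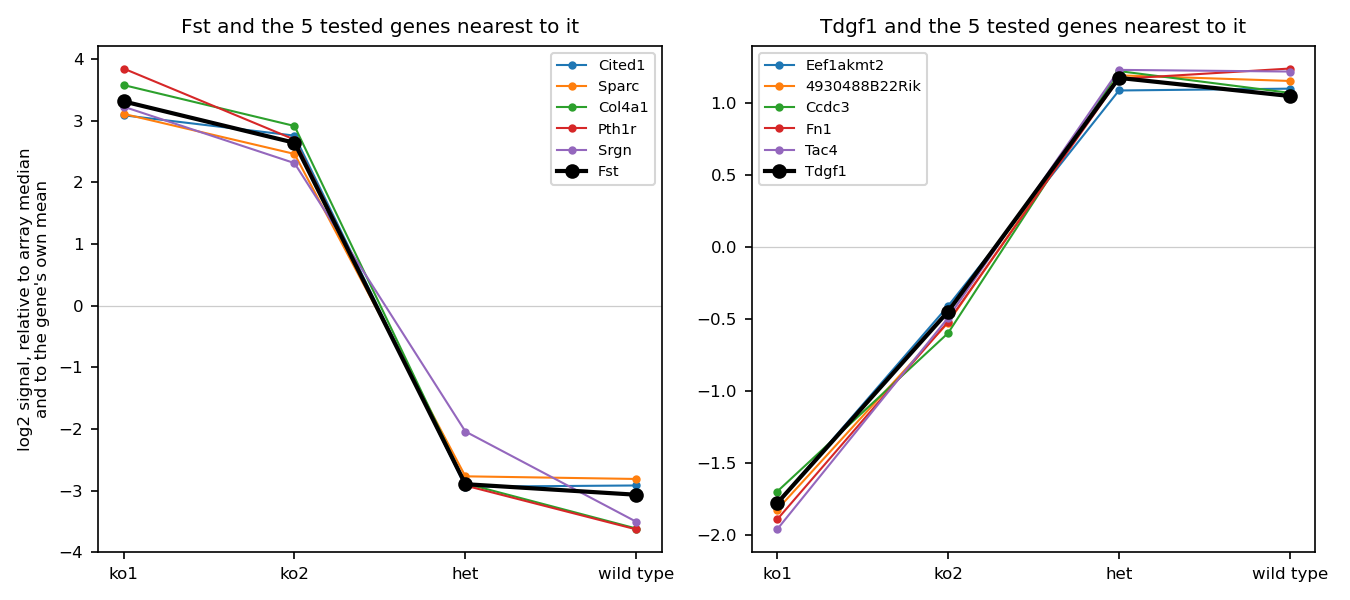
Log2 signal relative to the array median and to the gene's own mean on the 4 arrays for Fst (left, black) and Tdgf1 (right, black), each with the 5 nearest genes in colour; lines join the arrays to show the shape. The Fst group is high in ko1 and ko2, and Fst itself is below background in heterozygous and wild type. The Tdgf1 group is lower in ko1 and ko2 than in heterozygous and wild type. Among the Tdgf1 neighbours the ko1 and ko2 points are below background for all but Fn1.

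Markers of other cell types differed between the same arrays. The 12 extraembryonic endoderm markers gave summed signals of 6043 (ko1) and 3436 (ko2), against 105 in heterozygous and 153 in wild type. Sparc, Col4a1 and Lama1 made up most of the homozygous sums, at 3875, 1125 and 667 in ko1. Of the 12, 11 and 12 were above background in ko1 and ko2, against 4 in heterozygous and 5 in wild type. Amn was above background in ko2 alone, and its fitted difference from wild type was -0.89. In all, 6 of 12 were called higher than wild type, beside 0.401% of all tested genes. Foxa2 stands in this list as well as among the pathway genes. The 6 ES cell markers summed to 80.6 in ko1 and 118 in ko2, against 310 in heterozygous and 766 in wild type. Of these, 4 of 6 were called lower than wild type, beside 0.612% of all tested genes. These calls are on deposited differences, and relative to the median gene the median of the 6 was -2.20. Over all genes 84 were called lower, against 5 after median centring and 1 after quantile normalization. Fst is thus high on the arrays with the high endoderm sum, and Tdgf1 and Gdf3 are low on those with the low ES cell sum; the part of either in these values was not tested. The 7 trophoblast markers summed to 465 and 351 in the homozygous lines, against 114 and 103 in heterozygous and wild type, with Krt8 and Krt18 called higher. These keratin genes, expressed in other epithelia too, carried the sum: the other 5 markers summed to 24.4 in ko1 and 29.5 in ko2, against 13.8 in heterozygous and 31.6 in wild type. The 8 fibroblast markers summed to 36.0 and 57.8, against 23.3 and 36.5, and the 4 neuroectoderm markers to 32.7 and 22.7, against 31.0 and 33.8, with none called in either list and Sox1, which defines neuroectoderm, never above background.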

How the data were processed

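The authors deposited 1 signal intensity per probe set and array on a linear scale, made with MAS5 per the submitters' processing notes; no source used here gives its version, its scaling target or detection calls. Gene symbols came from the platform annotation: 34958 probe sets had 1 symbol, 932 several and 9211 none, and only the first kind was named. All 10 genes were found in the RefSeq gene table of GRCm38.p6. Signals were analysed as log2(signal + 0.675), the 20th percentile of all values. Each gene was its brightest probe set, and those whose mean over the arrays exceeded 2.55 (the 40th percentile of all probe sets) were tested with limma 3.58.1 in R 4.3.3 (1 mean per genotype, eBayes with an intensity trend, Benjamini-Hochberg, threshold 0.05). The fit has 1 residual degree of freedom and 47.83 in total. Each SE and p-value therefore rests mostly on the intensity trend over all genes, not on the gene's own spread. That trend knows only the spread between ko1 and ko2. Tdgf1, with a standard deviation of 0.87 between ko1 and ko2, has an SE of 0.58. Gdf3, with a standard deviation of 0.27, has an SE of 0.61. Where the dimmer side was at or below background, the fold is a bound against that background. The fit was tested on simulated data with equal noise on all arrays and no shift between them. That test does not cover differences in array level or RNA quality. The genes, lists and tests were chosen with earlier results of these data known. Named were all probe sets of the 10 genes, the 8 further genes with the largest fitted difference, and the 5 nearest profiles; Smad2, Smad3 and Smad4 were named to describe the transducers, and Ski, Skil, Tgif1 and Tgif2 after their values were seen. The closing section gives the alternatives. The number of arrays limits the precision.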

Additional observations from a re-analysis of the deposited data

How the results depend on the processing

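For homozygous against wild type, 3 of the 10 genes were called. The count was 1 (Fst) after quantile normalization, after median centring and without the filter on low signal, and 0 with probe sets averaged and without the intensity trend. It stayed at 3 with either other pseudocount, with every probe set as a feature, and with homozygous set against heterozygous and wild type together, a different contrast. For homozygous against heterozygous 2 of the 10 were called, beside 96 higher and 8 lower over all genes. The count was 1 (Fst) with a sixteenth (1/16) of the pseudocount, after quantile normalization, after median centring, without the filter and with every probe set as a feature, and 0 with probe sets averaged and without the trend. No further pathway gene was called under any of these settings. Without the trend 0 of all genes were called in either contrast, so that setting does not set these genes apart. With probe sets averaged 7 genes were called higher and 0 lower against wild type, and 10 and 0 against heterozygous. Without the filter the splits were 26 and 18, and 52 and 3. Against heterozygous the split was 41 and 4 after quantile normalization and 44 and 4 after median centring. It was 74 and 4 with 1/16 of the pseudocount and 101 and 6 with every probe set. Over all genes the split for homozygous against wild type was 55 higher and 84 lower, against 32 and 1 after quantile normalization and 45 and 5 after median centring, where the median gene moved from -0.75 to -0.18 and total degrees of freedom fell to 9.344 and 12.45. In that pooled fit the total was 27460, so its p-values rest almost wholly on the trend. The cause of these losses was not tested. Over 10 settings, the log2 difference from wild type ranged from -2.76 to -1.36 for Tdgf1 and from -2.19 to -1.70 for Gdf3. Both kept 1 sign, and Nodal ranged from -0.47 to 0.18. The fitted Fst difference was positive in all 10 settings. Since Fst was below background in wild type, its size is not measured and no range is given. Leaving out a homozygous replicate leaves no residual degrees of freedom, so those are values with no test and give no count. No paired analysis was possible because the heterozygous and wild type groups have 1 array each.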
